A study of Saccharomyces cerevisiae with 8 samples.

Results

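The transcript response to NaCl was measured in *Saccharomyces cerevisiae* cells of the strain *cdc14-3 snf1* on 3 two-colour arrays of a series of 8. The 3 arrays were taken by their genotype label, and no measured value entered the choice. Each array held 6868 features and gave for each a log2 ratio of NaCl-treated over unstressed cells, so a value of 1 is a doubling. The response of a feature is the mean of this ratio over the 3 arrays, set against 0. The *cdc14-3 snf1* strain was set beside *cdc14-3* (2 arrays, replicates 2 and 3) and *snf1* (3 arrays).

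All 3 strains were of the W303 background. Cells were grown at 25 °C in YPD, a rich medium with glucose, moved to 35 °C, and then brought to 0.7 M NaCl for 30 min at 35 °C. Replicate 1 of *cdc14-3 snf1* and replicate 1 of *snf1* had been at 35 °C for 90 min when NaCl was added, and the cultures of the other 6 arrays for 2 h. The *cdc14-3* allele makes the phosphatase Cdc14 inactive at 35 °C, and by the study's text *SNF1* was deleted in the *cdc14-3* background. The 35 °C step is thus shared by all arrays, and every *cdc14-3 snf1* and *cdc14-3* culture was without working Cdc14 before NaCl was added. The labels do not say whether replicates were separate cultures, so the p-values below measure the spread between these arrays, which may be technical. The NaCl-treated cells were at 35 °C for 30 min longer than the unstressed cells on the same array. No wild-type arrays were analysed here.

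When salt draws water out of a yeast cell, the MAP kinase Hog1 is activated, and transcription factors such as Hot1, Sko1, Msn2 and Msn4 raise genes for glycerol synthesis, salt export and protection, while genes for ribosome production fall. Snf1 is the AMP-activated kinase of yeast. It is best known for switching on genes for carbon sources other than glucose and for its part in glycogen storage, and it is also activated by salt. Cdc14 is a phosphatase released late in mitosis that reverses the work of the mitotic cyclin kinase and lets cells enter G1, and cells without it stop late in mitosis.

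Each array's median ratio lay within 0.001 of 0, and 6501 to 6776 features had a value on the *cdc14-3 snf1* arrays. Of the 6868 features, 5984 matched a gene of the RefSeq table for R64, which was used for names only. The direction of the ratio is not stated with the values, and neither is the log base, which is likely 2 by the study's methods. The direction was read from the Hot1 targets, which averaged above 0 on every array, and the ribosomal protein genes, which averaged below 0, so the sign of these lists' responses is fixed by that choice and is not a result. The dyes were placed the same way on all arrays, so a dye bias of a gene is part of its response and cancels between strains. The arrays were tiled over the whole genome, and features that overlap or lie on opposite strands, as well as near-identical gene copies, may share signal. The ratios of *SNF1* (YDR477W; 0.19, 0.28 and 0.03 on the 3 *cdc14-3 snf1* arrays) and *CDC14* (YFR028C; 0.36, 0.00 and 0.21) compare treated with unstressed cells of the mutant itself and cannot check the genotype. Here and below, the 3 values of *cdc14-3 snf1* are those of replicate 1 (90 min), replicate 2 and replicate 3 (2 h each).

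In cells without Snf1 and without active Cdc14, NaCl raised most genes of the trehalose and general stress lists and some of the glycerol lists, and lowered genes of ribosome production, translation and mitosis. Features with values on at least 2 arrays of each strain were tested in limma, with 1 mean per strain and all 8 arrays in the fit, by a two-sided test adjusted by Benjamini-Hochberg. Of 6135 features tested, 1265 were higher after NaCl at an adjusted p below 0.05 (20.6%) and 1563 were lower (25.5%). The median response of those higher was 0.76, and that of those lower was -0.80. A rise of at least 4-fold was seen for 76 of the called features and a fall of that size for 14, and 19 rose by at least 8-fold while 0 fell by as much. Of 6118 features with 3 values, 4458 (72.9%) had the same sign on all 3 arrays. On the 2 h arrays of the 3 strains alone, 1252 of 6096 features were higher (20.5%) and 1579 lower (25.9%), and 1090 of those higher and 1414 of those lower were called in both fits.

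The largest rise was that of *STL1* (YDR536W), a glycerol-proton symporter that brings glycerol back into salt-stressed cells. Its log2 ratio was 6.32, 7.41 and 6.45 on the 3 arrays, a mean of 6.73 ± 0.60 (SD, n = 3) or 106-fold (adjusted p in limma 2.01e-06). It was high on all 3 arrays, and the lowest of them was still above the mean of every other called gene. *MPC3* (YGR243W), a subunit of the mitochondrial pyruvate carrier, had 6.14, 5.37 and 3.91, and *FMP48* (YGR052W), a protein with a kinase-like sequence, had 4.70, 4.79 and 3.36. For both genes replicate 3 was the lowest array. *HXT5* (YHR096C), a hexose transporter of slow-growing cells, had 3.64, 4.86 and 3.38, with the highest value on replicate 2. YNL194C (4.23, 4.43 and 3.0), YNL195C (4.06, 3.93 and 3.49), *PHM7* (YOL084W; 3.53, 4.19 and 3.50) and *RTC3* (YHR087W; 4.09, 3.83 and 3.29) came next. The catalase gene *CTT1* (YGR088W; 3.55, 3.97 and 3.66) and the transaldolase gene *NQM1* (YGR043C; 3.34, 4.15 and 3.05) completed the 10 largest means. Over these 10 genes the adjusted p in limma was between 2.01e-06 and 0.000521.

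The deepest falls were smaller than the largest rises. *AAH1* (YNL141W), which encodes adenine deaminase, had ratios of -2.33, -3.58 and -3.0, a mean of -2.97 ± 0.63 (SD, n = 3). *MAE1* (YKL029C), the mitochondrial malic enzyme, had -2.80, -3.89 and -2.08, and the flocculin-like gene *BSC1* (YDL037C) had -3.88, -2.37 and -1.62. The 2 h arrays disagreed by more than 1 for *MAE1*, and the 90 min array was the lowest for *BSC1*. Biosynthetic genes made up several of the others: *HIS1* (YER055C) of histidine synthesis (-2.01, -3.29 and -1.86), *ASN1* (YPR145W) of asparagine synthesis (-2.13, -3.08 and -1.61) and the aldehyde dehydrogenase gene *ALD5* (YER073W; -1.92, -3.07 and -1.82). The acid phosphatase gene *PHO3* (YBR092C) had -1.72, -3.09 and -2.06, and *INA1* (YLR413W) had -2.41, -3.03 and -1.82. *NOP1* (YDL014W), the fibrillarin of the nucleolus, had the most even values of the 10 at -2.16, -1.95 and -2.41, and the mitochondrial feature Q0255 the least even at -3.80, -1.61 and -1.36. Without replicate 1 the mean of Q0255 was -1.49, against -2.26 with it.

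**Figure D1:**
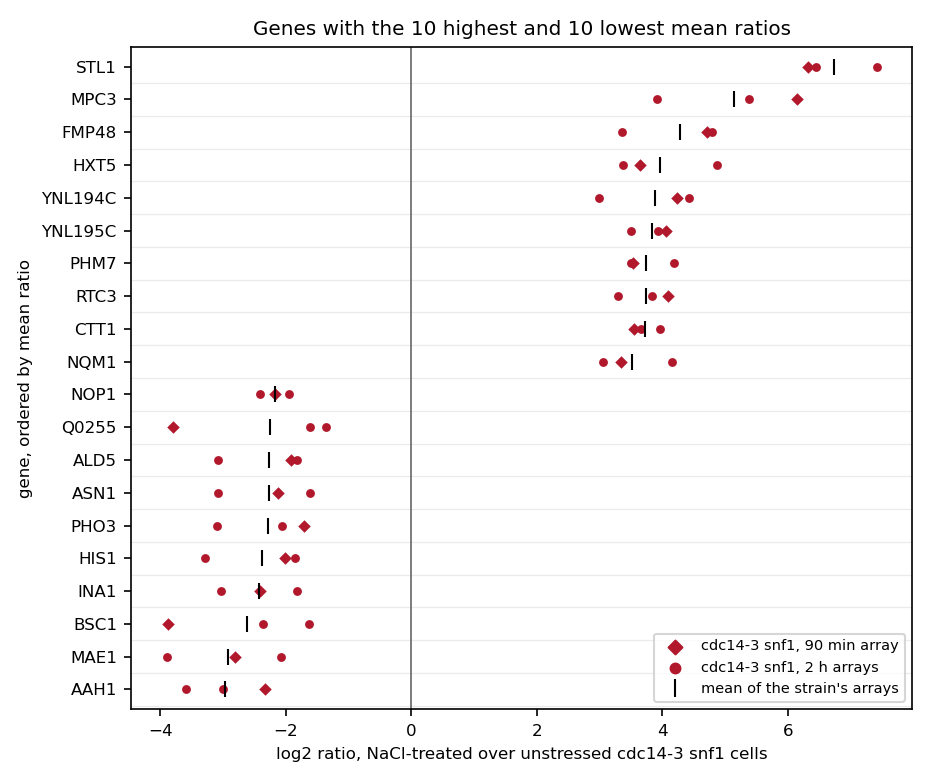
Log2 ratios of NaCl-treated over unstressed *cdc14-3 snf1* cells (horizontal axis) for the genes with the 10 highest and 10 lowest mean ratios among those called (vertical axis). Diamonds are the 90 min array, circles the 2 h arrays and bars the mean of 3 arrays. *STL1* stands at 6.73 and *AAH1* at -2.97. Only features with the same sign on all 3 arrays were eligible, so no gene shown has arrays on both sides of 0.

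Some genes of glycerol synthesis and transport rose in *cdc14-3 snf1* cells. Of 4 genes of glycerol synthesis, 2 rose (50%, against 20.6% of all features tested) and 0 fell. *GPD1* (YDL022W), the glycerol-3-phosphate dehydrogenase that starts the pathway, had ratios of 3.69, 3.53 and 3.27, a mean of 3.50 ± 0.21 (SD, n = 3) (adjusted p in limma 9.92e-05). *GPP2* (YER062C), the phosphatase of the next step, had 3.27, 3.85 and 2.72. The lowest of these 6 values, on replicate 3 for *GPP2*, was still well above the spread between arrays. Of 9 genes of glycerol transport and use, 5 rose (55.6%), 1 fell and 3 were not called. Those that rose included *STL1*, the dihydroxyacetone kinase gene *DAK1* (YML070W; 1.47, 2.57 and 1.98) and the reductase gene *YPR1* (YDR368W; 0.87, 1.25 and 0.94). The count of 5 rested on members close to the threshold, and it was 3 without replicate 2 or 3 of *cdc14-3 snf1* or without either *cdc14-3* array. *GUP2* (YPL189W), the gene that fell, had -0.21, -1.44 and -0.23, and without replicate 2 its call was lost (-0.22, adjusted p in limma 0.303).

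The targets of the transcription factor Hot1 were taken as the study listed them, and the direction of the ratio was read from them in part, so their sign is not independent of that choice. Of 67 members, 54 rose (80.6%, against 20.6% of all features tested) and 3 fell, with a median response of 1.45, against -0.03 over all features. Their mean was 1.47, 1.73 and 1.37 on the 3 *cdc14-3 snf1* arrays. Of 23 genes of the HOG pathway itself, which senses the salt and carries the signal, 3 rose (13%, against 20.6% of all features tested) and 6 fell (26.1%, against 25.5%), and the median was -0.03, as over all features. The 6 falls included the Hog1 phosphatase gene *PTC2* (YER089C; -1.75, -1.48 and -1.45), the MAP kinase kinase kinase gene *SSK22* (YCR073C; -0.82, -1.53 and -0.77) and the osmosensor gene *HKR1* (YDR420W; -1.21, -0.54 and -0.33), while the tyrosine phosphatase gene *PTP3* (YER075C) rose (0.95, 0.95 and 0.48). Without replicate 1 the falls in the pathway numbered 3, and *HKR1* (-0.43, adjusted p in limma 0.0579) and *PTP3* (0.72, adjusted p in limma 0.0525) were no longer called. Without replicate 2 only 1 gene of the pathway rose, and *PTP3* was again not called (0.72, adjusted p in limma 0.0507).

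Sodium export rose as well. Of 22 genes of sodium and potassium transport, 10 rose (45.5%, against 20.6% of all features tested) and 3 fell (13.6%, against 25.5%), with a median of 0.29. The *ENA* genes encode P-type ATPases that pump sodium out of the cell, and *ENA1* (YDR040C) had ratios of 1.63, 2.69 and 2.08 (adjusted p in limma 0.000443). The values of *ENA2* (YDR039C; 1.62, 2.55 and 2.00) and *ENA5* (YDR038C; 1.63, 2.46 and 2.02) ran close to those of *ENA1* on each array. The 3 genes are near-identical copies in a row, and the probes may not tell them apart, so they stand for 1 measurement. Each of the 3 is nevertheless counted among the 10 that rose. The sodium-phosphate symporter gene *PHO89* (YBR296C) had 0.48, 2.28 and 0.49, and its call rested on replicate 2 (0.49, adjusted p in limma 0.14 without it). The number of genes that rose was 4 without replicate 2 and 6 without replicate 3.

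Genes of general stress protection rose nearly throughout. Of 23 effectors of the Msn2 and Msn4 type, 20 rose (87%) and 1, *YRO2*, fell, with a median of 1.76. *CTT1*, *RTC3*, the aldehyde dehydrogenase genes *ALD3* (YMR169C; 2.85, 3.87 and 3.23) and *ALD2* (YMR170C; 2.53, 2.76 and 2.60), and the methylglyoxal reductase gene *GRE2* (YOL151W; 3.09, 3.47 and 2.09) led the group. *HSP12* (YFL014W), a membrane-stabilising protein that is a standard reporter of this response, had 2.11, 2.63 and 1.23, a mean of 1.99 ± 0.71 (SD, n = 3) (adjusted p in limma 0.00119). All 3 of its arrays showed a rise of more than a doubling, with replicate 3 the lowest. *GRE1* and *SIP18*, which encode hydrophilin-type proteins made under water loss, did not pass (adjusted p in limma 0.0847 and 0.0525). Of 21 genes for stress transcription factors 7 rose (33.3%, against 20.6% of all features tested) and 3 fell (14.3%, against 25.5%). *MSN2* (YMR037C) had 0.97, 1.24 and 1.04 and the repressor gene *NRG1* (YDR043C) had 1.83, 1.18 and 1.17, while the corepressor gene *TUP1* (YCR084C) had -1.15, -0.80 and -0.79.

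The trehalose pathway rose nearly whole. Trehalose is a disaccharide that protects proteins and membranes, and 9 of 10 of its genes rose and 0 fell, with a median of 1.34. *TPS1* (YBR126C) and *TPS2* (YDR074W), the enzymes that make it, had 1.62, 1.98 and 1.85 for *TPS1* and 2.41, 2.85 and 2.41 for *TPS2*. The regulatory subunit gene *TSL1* (YML100W) had 1.53, 2.01 and 1.71, and *PGM2* (YMR105C), the phosphoglucomutase that feeds both trehalose and glycogen, had 1.78, 2.36 and 2.35. Of 11 glycogen genes 8 rose and 0 fell (median 1.09), among them the branching enzyme gene *GLC3* (YEL011W; 2.64, 1.69 and 1.40), the debranching enzyme gene *GDB1* (YPR184W; 1.48, 1.61 and 1.79) and the Glc7 regulator gene *PIG2* (YIL045W; 2.35, 1.58 and 1.5). *GSY1* (YFR015C), a glycogen synthase, was high on the 90 min array (2.55, 0.75 and 1.26) and was not called without it (1.01, adjusted p in limma 0.145) or without replicate 3 (1.65, adjusted p in limma 0.0516). Without replicate 1 the count of glycogen genes that rose was 5.

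Oxidant defence was mixed, with 7 of 23 genes higher (30.4%, against 20.6% of all features tested) and 3 lower (13%, against 25.5%), and a median of 0.22. Apart from *CTT1*, the mitochondrial peroxiredoxin gene *PRX1* (YBL064C; 2.07, 2.04 and 1.46) and the glutaredoxin gene *GRX2* (YDR513W; 0.86, 1.74 and 1.0) rose, and the thiol peroxidase gene *AHP1* (YLR109W) fell (-1.24, -0.87 and -1.20). The pentose phosphate pathway, which makes NADPH, parted by isoform. Its second-copy genes *TKL2* (YBR117C; 3.01, 3.77 and 3.0), *SOL4* (YGR248W; 2.30, 2.48 and 2.41), *GND2* (YGR256W; 2.01, 2.24 and 2.09) and *NQM1* rose, and 4 of its 11 genes fell, *ZWF1*, *RKI1*, *TKL1* and *TAL1*. *GND2* and *SOL4* were among the 5 called features with the narrowest range over the arrays for a mean beyond 2, with ranges of 0.23 and 0.19.

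**Figure D2:**
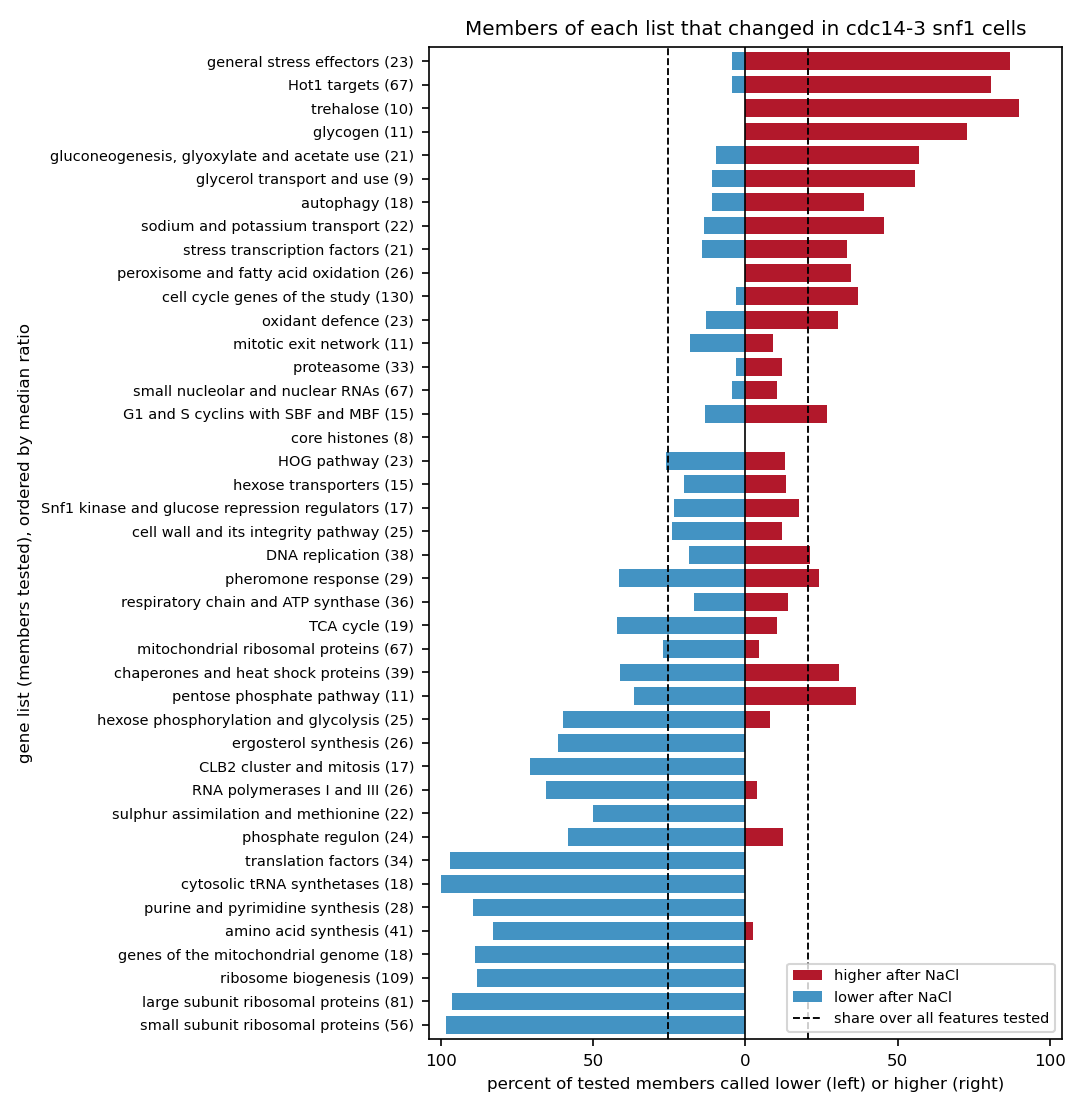
Share of the tested members of each gene list (vertical axis, number tested in brackets, lists of at least 8 described here) that were called higher (red, to the right) or lower (blue, to the left) in *cdc14-3 snf1* cells after NaCl, in percent (horizontal axis). Dashed lines mark the shares over all features tested, 20.6% higher and 25.5% lower; stress lists stand at the top and lists of ribosome production at the bottom.

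Carbon metabolism was examined because Snf1 is known to control it. Many genes of gluconeogenesis, the glyoxylate cycle and acetate use are known to need Snf1 when glucose runs out. The mean of this list was 0.64 in *cdc14-3 snf1*, 0.81 in *cdc14-3* and 0.92 in *snf1*. Whether the rise after NaCl depends on Snf1 was not tested. Of 21 members, 12 rose (57.1%) and 2 fell, with a median of 0.59. *ACS1* (YAL054C), the acetyl-CoA synthetase used without glucose, had 2.06, 2.17 and 2.78 (adjusted p in limma 0.00191). *CAT8* (YMR280C), an activator of gluconeogenic genes, had 1.94, 1.54 and 1.60, and the lactate and pyruvate carrier gene *JEN1* (YKL217W) had 1.61, 0.95 and 1.44. *MDH2* (YOL126C), the cytosolic malate dehydrogenase, had 1.03, 1.35 and 1.48. All 3 arrays of each of these genes lay above 0. Of 26 genes of the peroxisome and of fatty acid oxidation 9 rose (34.6%, against 20.6% of all features tested) and 0 fell (against 25.5%), with a median of 0.26. They included *POX1* (YGL205W; 2.24, 1.79 and 1.11), *ECI1* (YLR284C; 1.70, 1.46 and 1.23) and *POT1* (YIL160C; 1.56, 1.34 and 1.35) of the beta-oxidation spiral and the transporter gene *PXA1* (YPL147W; 1.77, 0.92 and 1.04). *POT1* was not called without any 1 of the *cdc14-3 snf1* arrays (means of 1.35 to 1.46, adjusted p in limma 0.0731 to 0.105), and *PXA1* was not called without replicate 1 (0.98, adjusted p in limma 0.0713). The count of peroxisomal genes that rose was 5 without replicate 1.

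Glycolysis fell by a smaller amount. Of 25 genes of hexose phosphorylation and glycolysis, 15 fell (60%) and 2 rose, with a median of -0.49. Pyruvate decarboxylase *PDC1* (YLR044C) had -1.08, -1.45 and -1.03 and phosphoglycerate mutase *GPM1* (YKL152C) had -0.47, -1.27 and -0.90. The genes that rose were those of the alternative kinases of glucose and fructose, *GLK1* (YCL040W; 1.13, 2.05 and 1.82) and *HXK1* (YFR053C; 0.84, 1.26 and 1.29). The falls numbered 9 without replicate 1 and 8 without replicate 2. Of 15 hexose transporter genes 2 rose (13.3%, against 20.6% of all features tested) and 3 fell (20%, against 25.5%). Besides *HXT5*, *HXT1* (YHR094C) rose (0.16, 1.77 and 0.82), and *HXT3* (YDR345C; -0.93, -0.92 and -0.74) and the glucose sensor gene *RGT2* (YDL138W; -0.60, -0.51 and -0.49) fell. The *HXT1* call rested on replicate 2 (0.49, adjusted p in limma 0.0781 without it), and members of this family share sequence. With the 2 h arrays alone, 7 of the 15 were lower.

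Regulators of glucose repression and subunits of the Snf1 complex gave 3 rises (17.6%, against 20.6% of all features tested) and 4 falls (23.5%, against 25.5%) among 17 genes. *REG2* (YBR050C), a regulatory subunit of the phosphatase Glc7, had 1.83, 1.73 and 1.21. The repressor genes *MIG3* (YER028C; -1.35, -1.22 and -1.10) and *MIG2* (YGL209W; -1.44, -0.67 and -0.43), which are related to the Snf1 target Mig1, fell, as did the glucose-responsive repressor gene *RGT1* (YKL038W; -0.87, -0.82 and -0.36). The mean of *MIG2* was -0.55 without replicate 1. In the TCA cycle 8 of 19 genes fell (42.1%, against 25.5%) and 2 rose (10.5%, against 20.6%), with a median of -0.22. Pyruvate carboxylase *PYC2* (YBR218C; -1.37, -1.89 and -1.03) and *IDH1* (YNL037C; -1.01, -1.32 and -0.90) fell beside *MAE1*. Of 36 genes of the respiratory chain and ATP synthase 5 rose (13.9%, against 20.6% of all features tested) and 6 fell (16.7%, against 25.5%). Members of 2 pairs of isoenzymes moved in opposite directions, with *CYC7* (YEL039C; 0.89, 1.35 and 1.05) higher and *CYC1* (YJR048W; -1.69, -1.26 and -1.07) lower among the cytochrome c genes, and *NDE2* (YDL085W; 0.88, 1.55 and 1.62) higher and *NDE1* (YMR145C; -1.38, -1.03 and -0.67) lower among the external NADH dehydrogenases. The falls in this list numbered 3 without replicate 1 and 10 without replicate 1 of *snf1*, and the rises in the TCA list 0 without replicate 2.

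Genes for making ribosomes fell together. Of 109 genes of ribosome biogenesis, 96 fell (88.1%) and 0 rose, with a median of -1.11. *NOP1*, the nucleolin-like gene *NSR1* (YGR159C; -2.49, -1.63 and -2.10), the rRNA methyltransferase gene *NOP2* (YNL061W; -1.75, -2.02 and -1.95) and *RRP5* (YMR229C; -1.74, -1.94 and -1.79) fell the most. The list mean was -0.99, -1.13 and -1.08 on the 3 arrays, so that no array stood apart. Of 26 genes for RNA polymerases I and III 17 fell and 1 rose, led by the polymerase I subunit genes *RPA135* (YPR010C; -1.53, -2.16 and -1.55) and *RPA190* (YOR341W; -1.49, -1.85 and -1.51). Genes of the cytosolic ribosomal proteins fell nearly without exception: 78 of 81 for the large subunit (96.3%, median -1.19) and 55 of 56 for the small subunit (98.2%, median -1.25), and 0 rose. Their sign, too, was used to read the direction of the ratio. Among them *RPL30* (YGL030W) had -2.05, -1.37 and -1.51 and *RPS26B* (YER131W) had -1.70, -1.85 and -1.92. Most of these genes exist as near-identical pairs that the probes may not tell apart. Of 67 genes of mitochondrial ribosomal proteins, 18 fell (26.9%, against 25.5% of all features tested) and 3 rose (4.48%), with a median of -0.23, and the falls numbered 5 without replicate 3 and 9 without replicate 2.

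The machinery that feeds translation followed. Of 34 genes for translation factors 33 fell, and all 18 genes of cytosolic tRNA synthetases fell (medians -0.83 and -0.85). Elongation factor *YEF3* (YLR249W) had -1.34, -1.84 and -1.30, and the phenylalanyl-tRNA synthetase gene *FRS2* (YFL022C) had -1.39, -1.71 and -1.27. Of 28 genes of purine and pyrimidine synthesis 25 fell and 0 rose (median -0.90). After *AAH1*, the guanine salvage gene *HPT1* (YDR399W; -2.58, -1.80 and -1.43), *ADE17* (YMR120C; -1.49, -2.93 and -1.25) and the CTP synthase gene *URA7* (YBL039C; -1.07, -1.95 and -1.84) fell the most. Of 41 amino acid synthesis genes 34 fell and 1 rose (median -0.92). The gene that rose, *ARO9* (YHR137W), encodes an aromatic aminotransferase and had 3.18, 3.42 and 2.87. Replicate 2 was the lowest array of this list, with a mean of -1.49 against -0.75 and -0.64 on replicates 1 and 3, and the arginine synthesis gene *ARG1* (YOL058W) showed it (-1.07, -3.60 and -1.23). The mean of *ARG1* without replicate 2 was -1.15, and it was still called.

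Further biosynthetic groups had smaller falls. Of 22 genes of sulphur assimilation and methionine synthesis 11 fell and 0 rose, led by the S-adenosylmethionine synthetase gene *SAM1* (YLR180W; -1.42, -1.46 and -1.28). Of 26 genes of ergosterol synthesis 16 fell and 0 rose, led by *ERG25* (YGR060W; -1.58, -1.55 and -0.96) and the lanosterol demethylase gene *ERG11* (YHR007C; -1.52, -1.40 and -1.05), and 8 fell without replicate 2. Of 24 genes of the phosphate regulon 14 fell (58.3%, against 25.5% of all features tested) and 3 rose (12.5%, against 20.6%). The acid phosphatase genes *PHO3*, *PHO11* (YAR071W; -1.27, -2.11 and -1.60) and *PHO12* (YHR215W; -1.28, -1.96 and -1.48) and the phosphate transporter gene *PHO84* (YML123C; -2.04, -1.53 and -1.11) fell. *PHO11* and *PHO12* are near-identical, and their values ran together on each of the 3 arrays.

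Chaperone genes parted into those that rose and those that fell. Of 39 genes 12 rose (30.8%, against 20.6% of all features tested) and 16 fell (41%, against 25.5%), with a median of -0.23. The small heat shock protein gene *HSP42* (YDR171W; 3.30, 2.10 and 1.59), the inducible Hsp70 gene *SSA4* (YER103W; 3.54, 1.53 and 0.54) and *BTN2* (YGR142W), which sorts misfolded proteins (3.38, 0.82 and 0.83), had the largest means of the list. All 3 were highest on the 90 min array. The ribosome-bound chaperone genes *SSB1*, *SSB2*, *SSZ1* and *ZUO1* (YGR285C) all fell, with *ZUO1* at -1.18, -1.45 and -1.58. The list mean was 0.41 on the 90 min array, against -0.14 and -0.34 on the 2 h arrays. A fit of the 2 h arrays alone called 7 of the 39 higher and 20 lower, and *SSA4* was not called without replicate 1 (1.04, adjusted p in limma 0.0604).

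The strain was made to ask whether a rise of G1 and S phase genes after NaCl in cells without Cdc14 depends on Snf1. In *cdc14-3 snf1* cells some G1 genes of the study's list rose and few of its S genes did, with lower class means on the 90 min array, and mitotic genes fell. In bulk RNA, a change in the share of cells at a stage cannot be told apart from a change in the transcript level per cell. Of 130 cell cycle genes taken from the study's list, 48 rose (36.9%, against 20.6% of all features) and 4 fell, with a median of 0.25. The study chose this list from a comparison of *cdc14-3* with wild-type cells after NaCl, so the count is not independent evidence of a direction. Of its 89 genes of class G1, 40 rose and 2 fell (median 0.39), and of its 19 genes of class S, 2 rose and 1 fell (median 0.00). The share that rose in class S was below the 20.6% of all features, whose median was -0.03. The mean of class G1 was 0.13, 0.63 and 0.57 on the 3 arrays, and that of class S was -0.49, 0.46 and 0.16. In both classes the 90 min array was the lowest. Without replicate 2 the number of the 130 genes that rose was 31.

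*CLB6* (YGR109C), a cyclin of S phase, had the largest rise of the cell cycle genes, with 1.01, 3.79 and 3.32 (adjusted p in limma 0.000972). The G1 cyclin gene *PCL1* (YNL289W) had 0.72, 2.82 and 2.10, the S cyclin gene *CLB5* (YPR120C) had 0.44, 1.10 and 0.94 and the cohesin gene *MCD1* (YDL003W) had 0.79, 2.09 and 1.93. All 3 arrays of each of these genes lay above 0, and the 90 min array was the lowest. *PLM2* (YDR501W), a forkhead-domain gene of G1, was highest on that array instead (2.48, 1.25 and 1.84). The G1 cyclin genes *CLN1* (YMR199W; -0.87, 0.27 and 0.32) and *CLN2* (YPL256C; -1.28, 0.25 and 0.11) did not pass (adjusted p in limma 0.744 and 0.367). Their sign differed between the 90 min array and the 2 h arrays, whose means were 0.29 and 0.18.

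Genes of DNA replication gave 8 rises (21.1%, against 20.6% of all features tested) and 7 falls (18.4%, against 25.5%) among 38. As a group they thus changed no more often than all features. *RNR1* (YER070W), the large subunit of ribonucleotide reductase, had -0.31, 1.90 and 1.89, and the sliding clamp gene *POL30* (YBR088C) had 0.46, 1.42 and 1.15. The helicase genes *MCM7* (YBR202W; -0.86, -1.45 and -0.91) and *MCM2* (YBL023C; -0.79, -1.17 and -0.95) fell. The rise of *RNR1* rested on the 2 h arrays: its mean was 1.90 without replicate 1, and it was not called without replicate 2 (0.79, adjusted p in limma 0.186) or replicate 3 (0.80, adjusted p in limma 0.195). Over the list, 4 rose and 4 fell without replicate 2, and 5 rose and 3 fell without replicate 3.

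Mitotic genes fell. Of 17 genes of the *CLB2* cluster and of mitosis, 12 fell (70.6%) and 0 rose, with a median of -0.63. The mitotic cyclin gene *CLB2* (YPR119W) had -1.51, -0.98 and -0.74 (adjusted p in limma 0.00068), the polo kinase gene *CDC5* (YMR001C) had -0.83, -0.76 and -0.62 and *ALK1* (YGL021W) had -1.45, -0.70 and -0.89. The 3 arrays of each gene were well below 0. *CLB1* (YGR108W), the sister of *CLB2*, was lowest on the 90 min array (-1.99, -0.49 and -0.52) and was not called without it (-0.50, adjusted p in limma 0.101). The number of falls was 7 without replicate 1. The mean of this list was -0.53 in *cdc14-3 snf1*, -0.52 in *cdc14-3* and 0.09 in *snf1*. The mitotic exit network, through which Cdc14 is released, had 1 rise (9.09%, against 20.6% of all features tested) and 2 falls (18.2%, against 25.5%) among 11 genes. The falls were those of *MOB1* (YIL106W; -0.34, -0.60 and -0.51) and the Cdc14 anchor gene *NET1* (YJL076W; -0.56, -0.44 and -0.42). *MOB1* was not called without replicate 2 (-0.42, adjusted p in limma 0.0577), nor *NET1* without replicate 1 (-0.43, adjusted p in limma 0.0513).

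**Figure D3:**
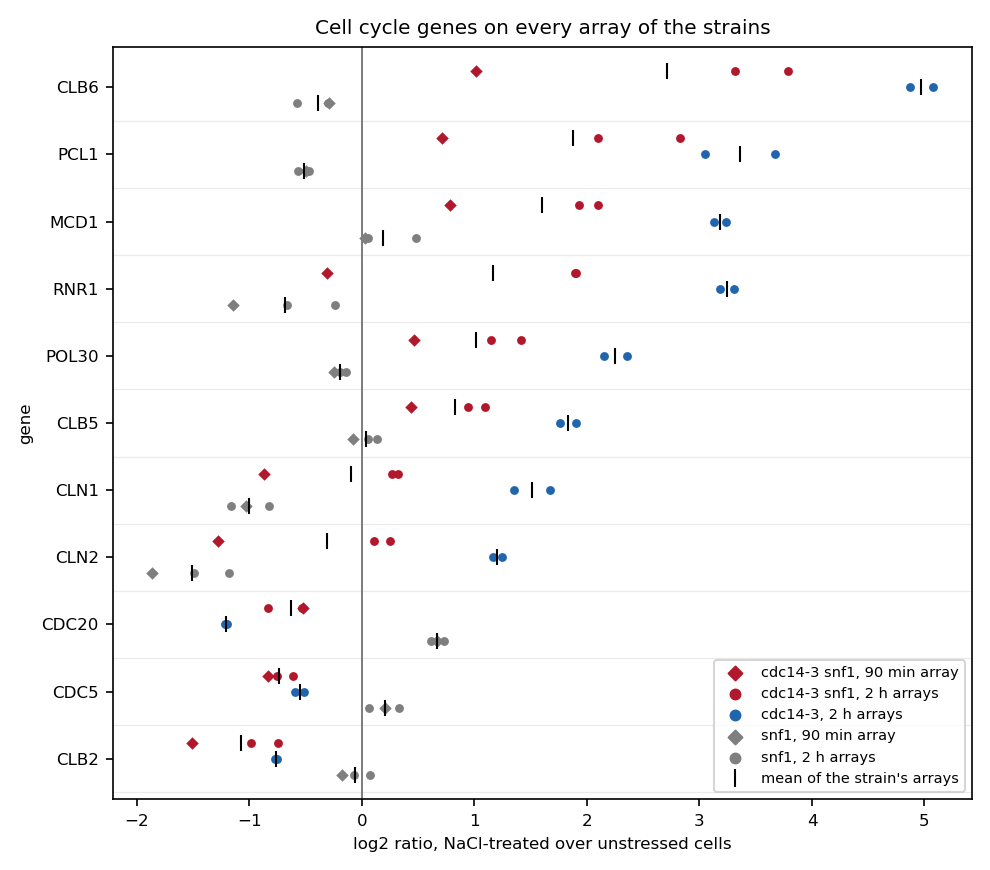
Log2 ratios of NaCl-treated over unstressed cells (horizontal axis) for 11 cell cycle genes (vertical axis) on each array of *cdc14-3 snf1* (red), *cdc14-3* (blue) and *snf1* (grey). Diamonds are 90 min arrays, circles 2 h arrays and bars strain means; for *CLB6* the *cdc14-3 snf1* mean of 2.71 lies between 4.97 in *cdc14-3* and -0.39 in *snf1*.

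Mating genes gave 7 rises (24.1%, against 20.6% of all features tested) and 12 falls (41.4%, against 25.5%) among 29. *PRM10* (YJL108C) was higher (2.84, 3.21 and 2.71). *FAR1* (YJL157C; -1.79, -2.48 and -2.07), which encodes the inhibitor that stops cells in G1 in pheromone, and *MFA2* (YNL145W; -1.37, -1.93 and -2.09), the a-factor pheromone gene, were lower. The rises of mating genes numbered 3 without replicate 1 and 4 without replicate 2. Genes of the cell wall and its integrity pathway gave 3 rises (12%, against 20.6% of all features tested) and 6 falls (24%, against 25.5%) among 25. The mannoprotein gene *CWP1* (YKL096W) rose (0.88, 2.19 and 1.51), while the glucan synthase gene *FKS1* (YLR342W; -1.11, -0.94 and -0.15) and *HSP150* (YJL159W; -1.05, -1.07 and -0.22) fell, and neither fall was called without replicate 1 or replicate 2 (adjusted p in limma 0.0636 to 0.0747). Of 18 autophagy genes 7 rose (38.9%, against 20.6%) and 2 fell (11.1%, against 25.5%), and 11 rose on the 2 h arrays alone. The largest rise was that of *ATG14* (YBR128C; 2.04, 1.29 and 1.43), a subunit of the lipid kinase complex that starts autophagosomes. Of 33 proteasome genes 4 rose (12.1%, against 20.6%) and 1 fell (3.03%, against 25.5%), all with a mean within 0.5 of 0. The rises numbered 0, 1 and 2 without replicates 1, 2 and 3 of *cdc14-3 snf1*, and 9 without replicate 1 of *snf1*.

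Replicate 1, the array held at 35 °C for 90 min, stood apart from the 2 h arrays. Over 6096 features with values on all 8 arrays, its correlation (Pearson's r) was 0.90 with replicate 1 of *snf1*, the other 90 min array, and 0.79 and 0.84 with replicates 2 and 3 of its own strain. Replicates 2 and 3 correlated with r of 0.88 with each other and with r of 0.80 to 0.89 with the *cdc14-3* arrays. These correlations are over features, which are not replicates. Of 6118 features, 93 lay at least 1 above both 2 h arrays on the 90 min array and 67 at least 1 below both, while the 2 h arrays lay at least 1 apart from each other for 135. With 1 array at 90 min, a difference between the heat times has no replicate in this strain.

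In the 8 core histone genes the 90 min array stood apart from the 2 h arrays. Their mean was -0.84 on the 90 min array, against 0.99 and 0.28 on the 2 h arrays, and 0 of 8 were called. The 90 min array was below 0 and both 2 h arrays above 0 for all 8 genes, and the range on the 90 min array was -1.14 to -0.52. A fit of the 2 h arrays alone called 3 of them higher, *HTB2*, *HTA2* and *HHF1*. The histone genes come in near-identical pairs. In *snf1* the histone mean was -1.51 at 90 min, against -0.91 and -0.69 at 2 h.

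The genes of the mitochondrial genome fell on all 3 arrays, and deepest at 90 min. Of 18 features tested, 16 fell and 0 rose, with a median of -1.04. The list mean was -1.89 on the 90 min array, against -0.56 and -0.72 on the 2 h arrays. *ATP8* (Q0080), an ATP synthase subunit, had -2.02, -0.94 and -0.76, and the intron-encoded *AI1* (Q0050) had -2.07, -0.76 and -0.82. Without replicate 1 the number of falls was 8, and on the 2 h arrays alone it was 13. In *snf1* the order of the heat times was the other way round, with -0.06 at 90 min and -0.92 and -0.49 at 2 h.

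**Figure D4:**
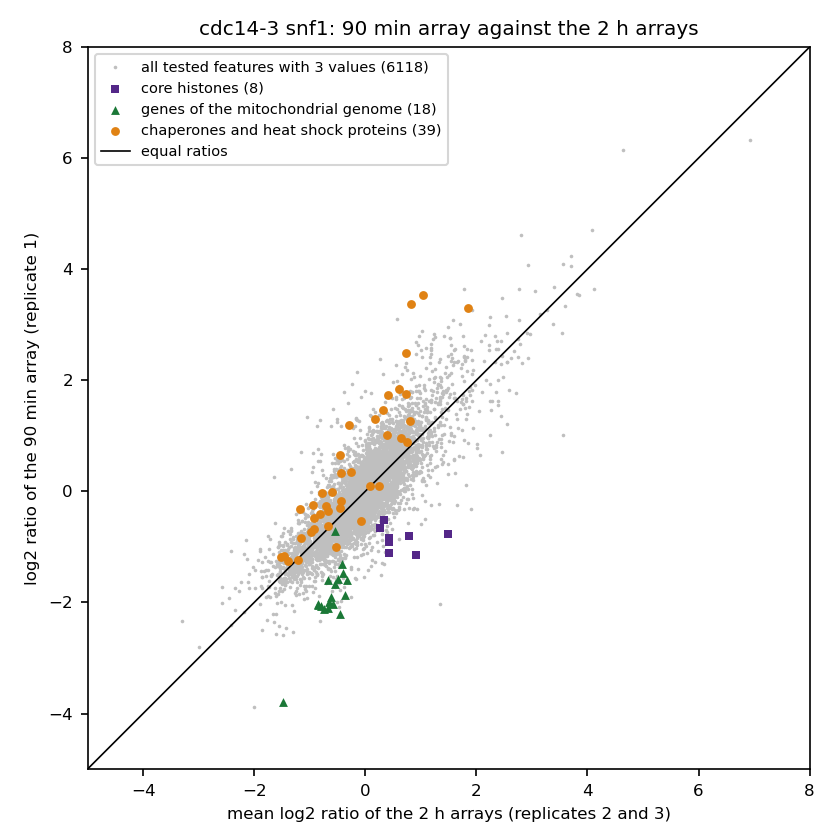
Log2 ratio of each tested feature on the 90 min array of *cdc14-3 snf1* (vertical axis) against the mean of its 2 h arrays (horizontal axis), with equal ratios on the diagonal. The 8 core histone genes (purple squares, mean -0.84 at 90 min) and nearly all mitochondrial genes (green triangles, -1.89) lie below the diagonal, and most chaperone genes (orange circles, 0.41) above it.

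The comparison of *cdc14-3 snf1* with *cdc14-3* asks how the salt response of cells without active Cdc14 differs when *SNF1* is also missing. It shares the *cdc14-3 snf1* arrays with the comparison that follows. In limma 3 of 6135 features differed (0.0489%), each of them lower in the *cdc14-3 snf1* strain, and 676 had an unadjusted p below 0.05. They were *FMP16* (YDR070C), a stress-induced mitochondrial protein, *CHA1* (YCL064C), the serine and threonine deaminase, and *DIC1* (YLR348C), the mitochondrial dicarboxylate carrier. *FMP16* had 1.01, 2.47 and 2.01 in *cdc14-3 snf1*, against 5.65 and 5.29 in *cdc14-3*. *CHA1* had -0.50, 0.23 and 0.61 against 2.75 and 2.57, and *DIC1* had -0.02, 0.09 and 0.12 against 1.70 and 1.49. The strains did not overlap for any of the 3 genes, which is no further evidence, since the genes were picked by this same comparison. Their differences were -3.64, -2.55 and -1.53 (SE 0.46, 0.31 and 0.20, adjusted p in limma 0.0424 each). The calls are at the edge of the threshold and were lost in all 3 genes without replicate 1 or 3 of *cdc14-3 snf1*, without either *cdc14-3* array and without replicate 2 or 3 of *snf1*. *EGO4* and *SIP18* followed with an adjusted p of 0.0571 each in limma.

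On the 2 h arrays alone, 2 of each strain, the same comparison gave 41 features with a lower ratio in *cdc14-3 snf1* (0.673% of 6096) and 3 with a higher one (0.0492%). Among the 41 were stress genes. Of the 23 general stress effectors, 8 were lower and 0 higher, and the list mean was 2.26 and 1.66 on the 2 h arrays of *cdc14-3 snf1*, against 3.63 and 3.40 in *cdc14-3*. *SIP18* had 2.39 and 0.85 in *cdc14-3 snf1*, against 6.90 and 5.30 in *cdc14-3* (difference -4.48, SE 0.68, adjusted p in limma 0.0479). *CTT1* had 3.97 and 3.66 against 6.33 and 6.10 (adjusted p in limma 0.0398), and *TKL2* had 3.77 and 3.0 against 6.68 and 6.68 (adjusted p in limma 0.022). *GRE1*, singled out after its values were seen, had 1.33 and 0.77 against 4.78 and 4.94 (adjusted p in limma 0.00347). In each of these 4 genes both *cdc14-3 snf1* arrays lay below both *cdc14-3* arrays by more than 2. The 4 were taken from the features called here, so that gap is not independent of the calls. Of the 130 cell cycle genes 8 were lower and 0 higher, among them *CLB6* and *RNR1*. The study chose that list by a rise in *cdc14-3* against wild-type cells, which favours lower ratios here. Of the 67 Hot1 targets 2 were lower. Of the 81 and 56 genes of the large and small ribosomal subunits and the 109 of ribosome biogenesis, 0 differed. The 3 features with a higher ratio in *cdc14-3 snf1* were *URA7*, *SAM1* and, named after its values were seen, *DIA1*. *DIA1* rose in *cdc14-3 snf1* (2.65, 1.04 and 1.34) and had -0.59 and -0.28 in *cdc14-3*.

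The responses of *GPD1*, *GPP2* and the ribosomal protein lists were close in size in *cdc14-3 snf1* and *cdc14-3*. The *GPD1* ratio had a difference of -0.06 (SE 0.34) between 3.69, 3.53 and 3.27 in *cdc14-3 snf1* and 3.61 and 3.50 in *cdc14-3*. For *GPP2* the means were 3.28 in *cdc14-3 snf1* and 3.36 in *cdc14-3*. The ribosomal protein lists averaged -1.16 and -1.23 in *cdc14-3 snf1*, against -1.19 and -1.23 in *cdc14-3*, for the large and the small subunit. A difference short of the threshold does not show that the strains respond alike.

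Set against *snf1*, the *cdc14-3 snf1* arrays ask how loss of Cdc14 alters the response where Snf1 is missing in both strains. Over all arrays limma called 0 of 6135 features (0%), with a smallest adjusted p of 0.0574, and 1137 had an unadjusted p below 0.05. The features with the smallest p were all lower in *cdc14-3 snf1*. *CDC20* (YGL116W), the activator of the anaphase-promoting complex, had -0.52, -0.84 and -0.54 in *cdc14-3 snf1*, against 0.67, 0.61 and 0.73 in *snf1*. *ASE1* (YOR058C), a spindle midzone protein, had -0.21, -0.37 and -0.03 against 1.05, 1.11 and 0.99, and the hypoxic translation factor gene *ANB1* (YJR047C) had -0.53, -1.05 and -1.22 against 0.71, 0.91 and 1.14. The cell wall mannoprotein gene *TIR1* (YER011W) had -0.37, -0.82 and -0.47 against 1.76, 0.85 and 0.98, and YIL060W had -0.90, -0.78 and -0.08 against 1.20, 1.16 and 1.54. In each of the 5 every *cdc14-3 snf1* array lay below every *snf1* array. They were picked by their p in this same comparison, so that separation is no further evidence of a difference. Their differences lay between -1.89 and -1.25, with adjusted p in limma from 0.0574 to 0.0764.

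The count depended on the 90 min arrays. On the 2 h arrays alone, 600 of 6096 features had a higher ratio in *cdc14-3 snf1* than in *snf1* (9.84%) and 782 a lower one (12.8%). Without replicate 1 of *cdc14-3 snf1* the fit called 257 features in all, and without replicate 1 of *snf1* it called 731. The features with a higher ratio included the cyclin gene *CLB6*, with 3.79 and 3.32 in *cdc14-3 snf1* against -0.57 and -0.31 in *snf1* (difference 4.0, SE 0.21, adjusted p in limma 0.00129). *PCL1* had 2.82 and 2.10 against -0.57 and -0.47, and *RNR1* had 1.90 and 1.89 against -0.67 and -0.24. Of the 130 cell cycle genes, 55 were higher and 1 lower, a direction favoured by the study's choice of that list from *cdc14-3* against wild-type cells. Of the 8 core histone genes 7 were higher. Sodium export was also higher, with *ENA1* at 2.69 and 2.08 against 0.57 and 0.14 (adjusted p in limma 0.00914), and so were 8 of 10 trehalose genes. Of the general stress effectors 8 of 23 were higher and 0 lower. On the 90 min arrays these 3 gaps were not seen: *ENA1* had 1.63 in *cdc14-3 snf1* and 1.60 in *snf1*. The trehalose list averaged 1.22 in *cdc14-3 snf1* and 1.46 in *snf1* at 90 min, and the general stress list 1.63 in *cdc14-3 snf1* and 2.48 in *snf1*, both lower in *cdc14-3 snf1*. At 2 h the trehalose means were 1.48 and 1.35 in *cdc14-3 snf1*, against 0.59 and 0.33 in *snf1*, and the general stress means 2.26 and 1.66, against 1.56 and 0.99.

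Lower in *cdc14-3 snf1* than in *snf1* on the 2 h arrays were chaperone and growth genes. Of 39 chaperone genes 26 were lower and 1 higher. *BTN2* had 0.82 and 0.83 in *cdc14-3 snf1*, against 5.18 and 4.59 in *snf1* (difference -4.06, SE 0.22, adjusted p in limma 0.00129), and *SSA4* had 1.53 and 0.54 against 4.99 and 3.48. On the 90 min arrays the gap was smaller for both genes, with 3.38 against 4.85 for *BTN2* and 3.54 against 4.71 for *SSA4*. Of 109 genes of ribosome biogenesis 72 were lower and 1 higher, and of the genes of the large and small ribosomal subunits 49 of 81 and 30 of 56 were lower. The list means for ribosome biogenesis were -1.13 and -1.08 in *cdc14-3 snf1*, against -0.10 and -0.40 in *snf1*. At 90 min they were -0.99 in *cdc14-3 snf1* and -1.07 in *snf1*, so the difference of the 2 h arrays was not seen there. Some mitotic genes were lower too: of the *CLB2* cluster 6 of 17 were lower and 1 higher, against 12.8% and 9.84% of all features. *CLB2* had -0.98 and -0.74 in *cdc14-3 snf1*, against -0.07 and 0.07 in *snf1*. *CDC5* had -0.76 and -0.62 in *cdc14-3 snf1*, against 0.06 and 0.33 in *snf1*. For both genes every *cdc14-3 snf1* array lay below every *snf1* array, but they were named for the size of their fall in *cdc14-3 snf1*. *ALK1* (-0.70 and -0.89 against -0.62 and -0.39) and *CLB1* (-0.49 and -0.52 against -1.19 and -0.58) were not called, and *CLB1* was higher in *cdc14-3 snf1*.

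**Figure D5:**
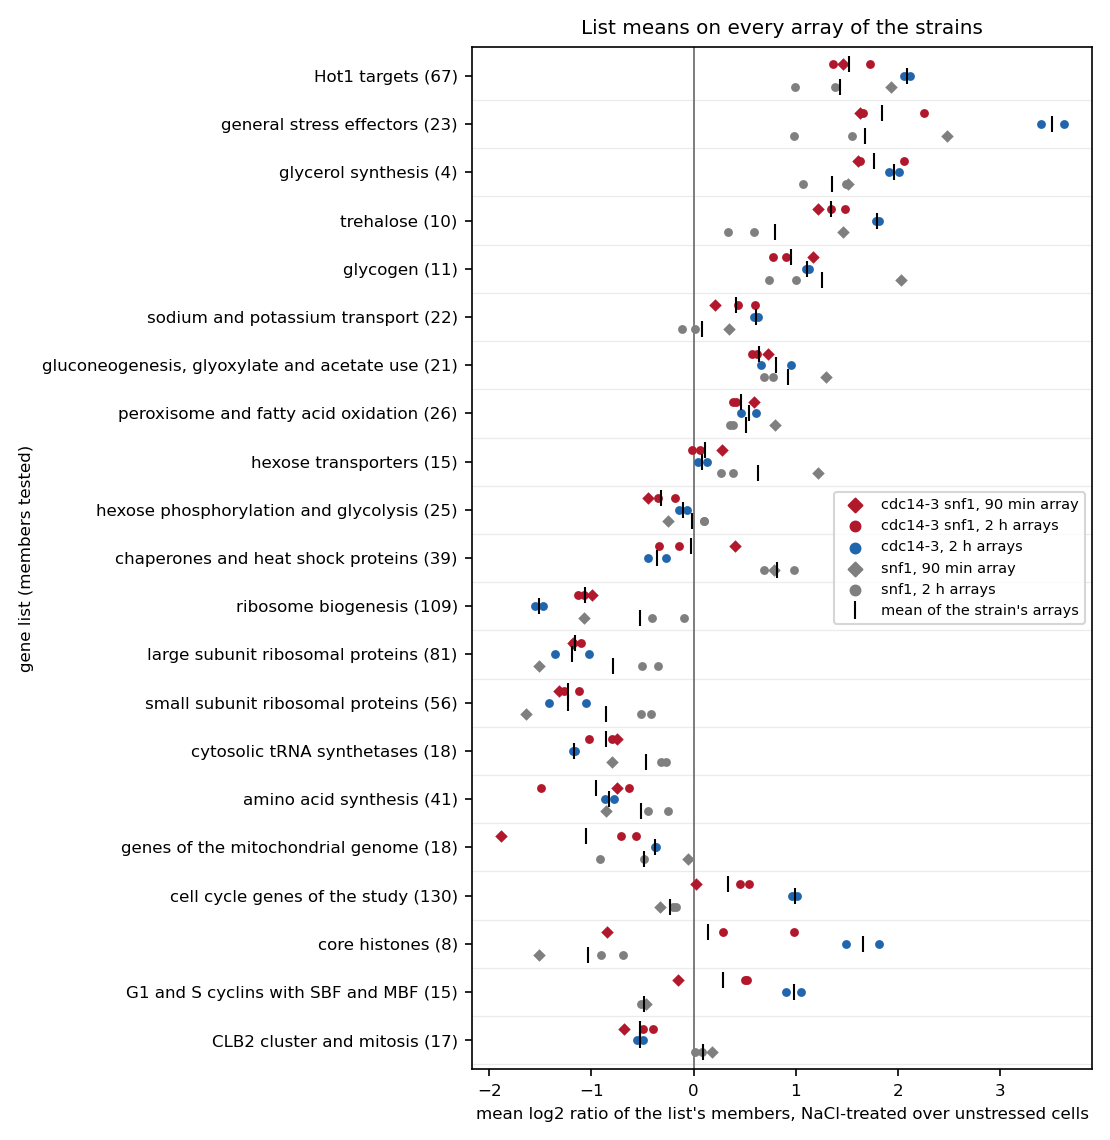
Mean log2 ratio of the members of 21 gene lists (horizontal axis) on each array of *cdc14-3 snf1* (red), *cdc14-3* (blue) and *snf1* (grey), with lists on the vertical axis and their number of tested members in brackets. Diamonds are 90 min arrays, circles 2 h arrays and bars strain means; for the core histones the *cdc14-3 snf1* arrays spread from -0.84 to 0.99, and for the general stress effectors they lie at 1.63 to 2.26, below *cdc14-3* at 3.40 and 3.63.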

How the data were processed

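Cells of 3 strains were compared on 8 two-colour whole-genome tiled arrays, 3 of *cdc14-3 snf1*, 2 of *cdc14-3* and 3 of *snf1*. The deposited values are log2 ratios of NaCl-treated over unstressed cells, normalized by the authors, with the same dye on treated cells of all 8 arrays. How probes were joined into 1 value per feature, and the reason for missing values, are not given in the sources used here. With no counts, the number of arrays limits the precision.

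Values were used as deposited, in R 4.3.3. Features with values on at least 2 arrays of each strain were fitted in limma 3.58.1 (lmFit and eBayes, 1 mean per strain over all 8 arrays), tested two-sided, and adjusted by Benjamini-Hochberg over all features tested, with a threshold of 0.05. The script was tested on simulated data. Alternatives covered array scaling, missing values, arrays entering the fit, heat time, a replicate block, array weights and leaving out each array.

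Genes were named by rule: *SNF1* and *CDC14*; the 10 highest and 10 lowest means among called features with the same sign on all 3 arrays; the 4 called members of each list with the largest means in either direction, with 13 fixed genes; up to 5 called features per direction in each strain comparison, or the 5 with the smallest p; and the 5 called features with the widest range over the arrays and the 5 with the narrowest. A gene given only as a member of a list or as an exception is outside this rule. The gene lists and comparisons were chosen with earlier results of these data known. Of the listed genes, *ADE5,7* and *ARG5,6* were not matched. 1 gene and 1 gene list are not reported here.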

Additional observations from a re-analysis of the deposited data

Results flagged for a closer look

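The NaCl response of *cdc14-3 snf1* differed from that of *cdc14-3* in limma for *FMP16* (-3.64), *CHA1* (-2.55) and *DIC1* (-1.53), with an adjusted p of 0.0424 each. In each of the 3 genes every *cdc14-3 snf1* array lay below both *cdc14-3* arrays, but the genes were picked by this same comparison. The 2 strains were also not matched for heat time in it.

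For 4 gene lists the mean over the members lay on one side of 0 on every *cdc14-3 snf1* array and on the other side on every array of another strain. The 4 were singled out from all the gene lists by these values, and the differences were not tested. The mitotic genes of the *CLB2* cluster averaged -0.53 over the arrays of *cdc14-3 snf1*, against 0.18, 0.08 and 0.01 on those of *snf1*. In *cdc14-3* they averaged -0.50 and -0.55 on the 2 arrays, so the fall was shared with that strain. The study's cell cycle genes averaged 0.34 in *cdc14-3 snf1* (0.02, 0.54 and 0.45 on the 3 arrays), against -0.33, -0.20 and -0.17 in *snf1*. In *cdc14-3* these genes averaged 1.01 and 0.97. Since the study chose them by their rise in *cdc14-3* against wild-type cells, that choice favours this direction. Genes of the pheromone response averaged -0.11 in *cdc14-3 snf1* (-0.007, -0.22 and -0.09 on the 3 arrays), against 0.29, 0.06 and 0.04 in *snf1*. Their means in *cdc14-3* were -0.27 and -0.26, also below 0. Genes of the mitotic exit network averaged 0.049 in *cdc14-3 snf1* (0.05, 0.02 and 0.08 on the 3 arrays), against -0.10 and -0.03 in *cdc14-3*. Their means in *snf1* were 0.15, 0.07 and -0.02. Apart from the *CLB2* cluster, each of these lists thus had *cdc14-3 snf1* arrays close to 0.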

How the results depend on the processing

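The number of features called in the response of *cdc14-3 snf1* was 2828. It was 1847 at an adjusted p below 0.01 and 867 with an absolute value of at least 1, and between 2074 and 3229 without any 1 array. For *cdc14-3 snf1* minus *cdc14-3*, 3 were called. The count was 51 with the arrays brought to one spread, 20 after quantile normalization, 0 with no filter on missing values, 25 with only the arrays of the strains compared, 44 with the 2 h arrays only, 13 with heat time as a covariate, 272 with array weights and 0 at an adjusted p below 0.01. It was 0 to 75 without any 1 array, with 75 without replicate 1 of *snf1*. For *cdc14-3 snf1* minus *snf1*, 0 were called. The count was 1382 with the 2 h arrays only, 110 with heat time as a covariate and 1657 with array weights, and 0 to 731 without any 1 array. Array weights gave replicate 1 of *cdc14-3 snf1* a weight of 0.479, against 0.939 and 3.20 for replicates 2 and 3. The cause of these shifts was not tested.

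With the replicate number as a block (replicate block), 2830 features were called in the response, 2 against *cdc14-3* and 10 against *snf1*. Deviations of same-numbered *cdc14-3 snf1* and *snf1* arrays from their strain means correlated with r of 0.159, 0.041 and 0.205, and among the *snf1* arrays replicate 2 correlated most with replicate 3 (0.103). Between different numbers of these 2 strains r ran from -0.231 to 0.103. With same-numbered *cdc14-3* arrays r was 0.264 and 0.0942, from 2 pairs only, and the deviations of 2 arrays mirror each other. All same-numbered r were thus above 0, but small. Whether the numbers pair the samples was not settled, and the main fit took no pairing.

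Among named genes, 3436 values under an alternative kept their direction and side of the threshold, 140 lost and 51 gained a call, and 9 changed sign. The changes of sign were *SNF1* (-0.30 with heat time as a covariate), *CLN1* (0.29 with the 2 h arrays only, 0.11 with heat time, 0.19 with array weights) and *CLN2* (0.18 with the 2 h arrays only, 0.023 with heat time). Without any 1 array, *CLN1* ranged from -0.30 to 0.29, *CLN2* from -0.59 to 0.18 and *CHA1* from -0.14 to 0.42. Of the list counts, 1431 stayed within 1.5 times and 153 did not. A planned search of promoters for motifs was not run, since promoter sequences were not used here.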

Other observations

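Features outside the protein-coding genes were also measured. Of 116 tRNA features, 24 were higher in *cdc14-3 snf1* cells after NaCl (20.7%, against 20.6% of all features tested) and 4 lower (3.45%, against 25.5%), with a median of 0.24. Of 67 small nucleolar and small nuclear RNAs 7 were higher (10.4%) and 3 lower (4.48%), with a median of 0.11, and 4 and 0 without replicate 1. Of 219 features with a systematic name that did not match the RefSeq table, 61 were higher (27.9%) and 18 lower (8.22%), and such features may lie across from, or overlap, named genes.

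The called features with the widest range over the 3 arrays were *CUP1-1*, *CUP1-2*, *SSA4*, *CLB6* and *CIT2*. The metallothionein gene *CUP1-1* had 2.57, 3.43 and 0.22 and its identical copy *CUP1-2* had 2.57, 3.14 and 0.08, high on replicates 1 and 2 and low on replicate 3. *CUP1-1* was not called without replicate 1 (1.83, adjusted p in limma 0.109) or replicate 2 (1.40, adjusted p in limma 0.135). The peroxisomal citrate synthase gene *CIT2* had 0.12, 2.84 and 0.77, and was not called without replicate 2 (0.45, adjusted p in limma 0.101). Among features with a mean beyond 2, the narrowest ranges were those of *ALD2*, *SOL4*, *GND2*, YHR033W (2.32, 2.53 and 2.56) and YER066C-A (2.34, 2.24 and 2.05).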
